A study of Mus musculus with 6 samples.

Results

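Genes for the proteins of the cytosolic ribosome were followed in mouse bone marrow before and after a sort for green fluorescent protein (GFP). Members were the genes whose symbol matches Rpl or Rps with a number (with the endings a, x, l or l1), or Rplp0 to Rplp2, and that have a probe set listing no other gene. This gave 47 genes of 18193 named genes, 26 of the large and 21 of the small subunit, read by 102 probe sets. The brightest probe set of a gene over the 6 arrays stood for it, and a gene's other probe sets are described separately.

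The sorted group (n = 3) held GFP-positive cells and the presort group (n = 3) unsorted whole marrow, and both came from hemizygous mice of the line Tg(Ren1-GFP)2Kwg, aged 3 to 6 months. Each of 3 sorting days gave 1 pool of 4 to 5 male and female mice, from which 1 sorted and 1 presort sample were taken, so a value stands for a pool and not for an animal. The GFP reporter marks cells in which the renin transgene is active, which need not equal renin protein. The scatter gate also removed erythrocytes and debris, and the lower GFP limit admitted 0.1% of cells without the transgene.

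An Affymetrix 3' expression array measured each sample, and values are log2 of the deposited intensity unless stated otherwise. In bulk RNA, fewer cells of a type and less RNA per cell cannot be told apart. Precision is limited by having 3 arrays in a group. The cell mixture differed between the groups: 6 of 7 measured B lineage markers rose. The remaining marker did not pass, and it was called lower without sorted replicate 3 or without pool 3. The summed linear intensity of all 7 was 51426 to 56098 in sorted and 9227 to 18203 in presort samples. All 7 neutrophil markers fell (sums of 50028 to 90732 in sorted and 153822 to 160888 in presort samples), as did all 5 erythroid markers (13217 to 19748 and 37625 to 42195). The defining B lineage genes Cd79b and Ms4a1 had mean levels of 12.91 and 12.84 over the 6 arrays. All 4 monocyte and macrophage markers, both NK markers, 2 of 3 megakaryocyte markers and all 3 markers of dividing cells also fell, the last with sums of 5226 to 8627 in sorted and 28993 to 29841 in presort samples. None of 3 T cell markers passed. With arrays left out or the processing changed, some marker calls were lost in at least 1 case. These were Pax5, S100a8, S100a9, Ngp, Alas2, Tfrc, Ncr1, Itga2b and Top2a, and of them only Top2a changed sign. RNA quality moved with the groups too. The 3' minus 5' difference of the beta-actin control was 3.17, 1.54 and 1.43 in sorted replicates 1, 2 and 3, and 1.11, 0.95 and 0.81 in the presort replicates (p = 0.1, two-sided exact permutation test, the smallest that 3 against 3 arrays allow). The part of cell mixture or RNA quality in the results below was not tested, except where a fit with the beta-actin difference as a covariate is given.

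The ribosome is built from a small subunit, which decodes mRNA, and a large subunit, which joins amino acids and carries the flexible stalk that recruits translation factors. Its proteins are made in matched amounts in dividing cells, and marrow is sensitive to their supply: loss of 1 copy of several of these genes causes Diamond-Blackfan anaemia in humans. Their mRNAs typically begin with a C followed by an unbroken run of pyrimidines, the 5' terminal oligopyrimidine tract, through which mTOR signalling and the protein Larp1 control their translation.

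The starts of the genes with the clearest differences are shown because this tract is the feature the family shares and the choice of members did not use. Sequences are from RefSeq on GRCm38.p6, on the strand of the gene, 10 bases before and 15 bases from the annotated start. Capitals mark a tract, defined as a C at the start followed by at least 4 bases that are each C or T. The first 6 genes passed the test between the groups, and Rps18 and Rpl35 are given as bright genes with a long tract.
Rpl12 (chr2:32961702-32961726, plus strand): agcaggatccgtcttttcggctttc
Rps25 (chr9:44407704-44407728, plus strand): ccgacatcttagcgaggctgctgtg
Rps27 (chr3:90213634-90213658, minus strand): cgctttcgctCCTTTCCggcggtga
Rpl37a (chr1:72711250-72711274, plus strand): ctcgccggtctaaaaccgcgcatgc
Rpl14 (chr9:120571507-120571531, plus strand): ggccctctctCTTCTCgctgagcgc
Rps27l (chr9:66946076-66946100, plus strand): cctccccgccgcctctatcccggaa
Rps18 (chr17:33955651-33955675, minus strand): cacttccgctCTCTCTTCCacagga
Rpl35 (chr2:39005117-39005141, minus strand): ccgccctttcCTCTTTCTCTCgaac

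RefSeq start windows were matched for 41 of the 47 genes, and 8 of these (19.5%) had the tract exactly at an annotated start, against 3.01% of 27025 genes of all kinds. A tract that begins a few bases from the annotated start was not counted. Of the 8 genes with the tract, Rps27 was higher and Rpl14 lower in sorted samples. Of the 33 without it, 3 were higher and 1 lower. The median difference was -0.12 with the tract and -0.07 without it.

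Most of the 47 ribosomal protein genes showed small differences between sorted and presort samples in the deposited values. The size of these differences depends on the centre chosen for the arrays, as given below. With 3 arrays in a group, a gene that does not pass is not thereby shown to be equal. Of 47 genes, 4 rose and 2 fell in sorted samples and 41 did not pass (adjusted p under 0.05 by limma, Benjamini-Hochberg over all genes). Over all 18193 genes 14.5% were called higher and 18.1% lower. Of the members 8 had an unadjusted p under 0.05, against 40% of all genes. The median difference of the members, sorted minus presort, was -0.02, against -0.002 over all genes, with pool medians of 0.00, 0.01 and -0.01. The median absolute difference was 0.16 for members and 0.24 for all genes. In 41 members the difference was within 0.5 of 0. The 3 sorted values lay above all presort values in 12 members and below them in 5 (20.9% and 23.6% of all genes), and the groups overlapped in 30.

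**Figure D1:**
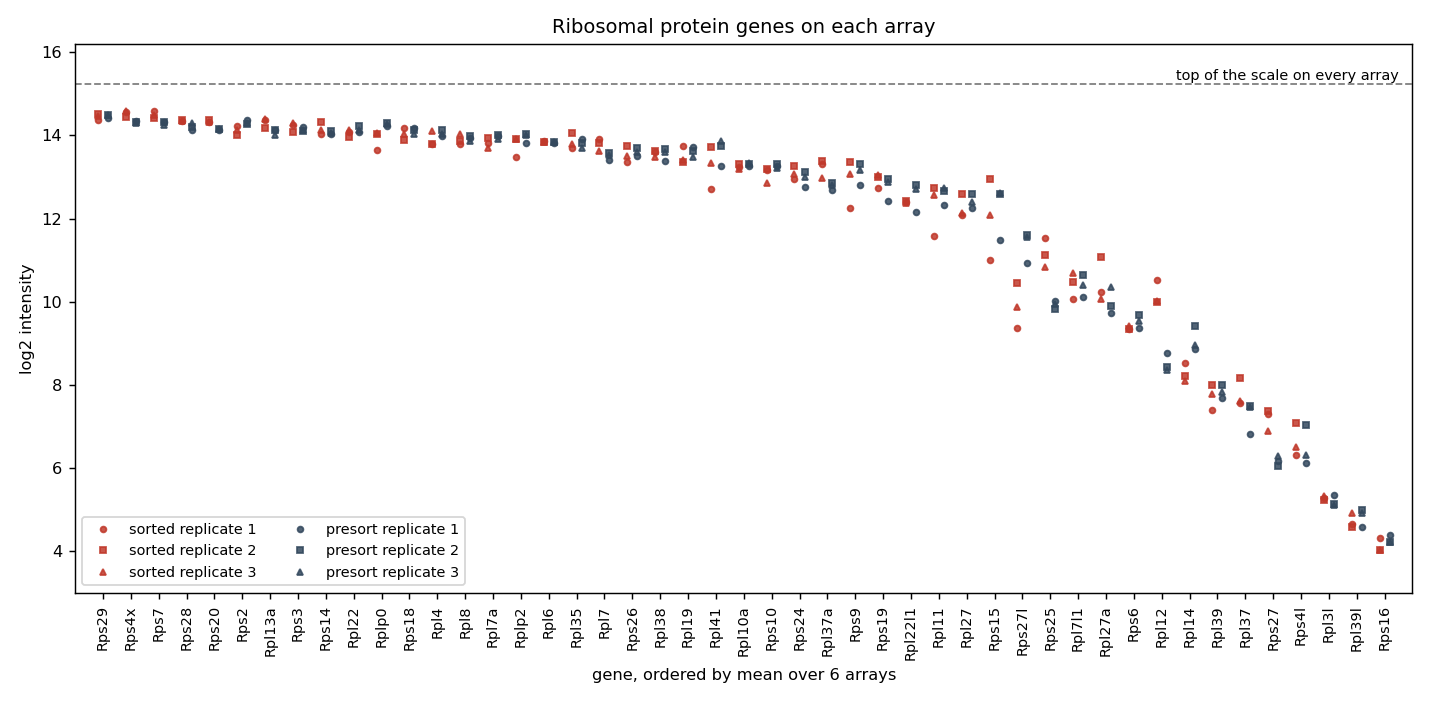
Log2 intensity (vertical axis) of each of the 47 ribosomal protein genes, ordered by mean, with the 3 sorted arrays in red and the 3 presort arrays in dark grey beside them. Of the 26 genes at 13 or more, all below the top of the scale at 15.23, the groups overlap in 16, the sorted values lie above in 7 and below in 3, and Rpl12, Rps25 and Rps27l further right show separated groups.

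The subunits were described separately, with no test of either as a whole. Of the 26 large subunit genes 2 rose and 1 fell, with differences from -0.80 to 1.65 and a median of -0.06. Of the 21 small subunit genes 2 rose and 1 fell, with differences from -1.46 to 1.23 and a median of 0.06. The sign was above 0 in 11 genes of each subunit. With the arrays' medians over the named genes set equal, both medians lie 0.23 higher.

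The 4 members highest on the scale, Rps29, Rps4x, Rps7 and Rps28, all belong to the small subunit. Rps29, a zinc-binding protein of the subunit's head, had 14.38, 14.52 and 14.47 in sorted replicates 1, 2 and 3 and 14.42, 14.49 and 14.49 in presort replicates 1, 2 and 3. The groups overlapped, with a difference of -0.01 ± 0.10 (SE). Rps4x, encoded on the X chromosome, had 14.57, 14.45 and 14.59 in sorted and 14.34, 14.32 and 14.31 in presort samples. Here every sorted value lay above every presort value, but the difference of 0.21 ± 0.10 (SE) did not pass (limma adjusted p = 0.163). Rps7 had 14.59, 14.43 and 14.48 in sorted and 14.32, 14.33 and 14.26 in presort samples, also separated and also not called (0.20 ± 0.10, adjusted p = 0.208). Rps28 stood at 14.35 ± 0.01 in sorted and 14.21 ± 0.08 in presort samples (SD, n = 3 each) and did not pass (limma adjusted p = 0.352). Rps19, the gene most often affected in Diamond-Blackfan anaemia, had 12.74, 12.99 and 13.04 in sorted and 12.43, 12.95 and 12.87 in presort samples. Its groups overlapped (0.18 ± 0.16, SE). Rps6, whose protein is the substrate of the S6 kinases, had an overlapping 9.37 ± 0.05 in sorted and 9.53 ± 0.17 in presort samples (SD, n = 3 each).

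In the stalk, Rplp0, the protein that anchors it, had 13.65, 14.02 and 14.06 in sorted replicates 1, 2 and 3 and 14.22, 14.31 and 14.26 in the presort replicates. All sorted values lay below all presort values, yet the difference of -0.35 ± 0.14 (SE) did not pass (limma adjusted p = 0.0904). Rplp2, which pairs with Rplp1 on that anchor, had 13.48, 13.92 and 13.90 in sorted and 13.83, 14.03 and 14.01 in presort samples. Its groups overlapped, and in both stalk genes sorted replicate 1 was the lowest array. Rpl11 binds 5S rRNA together with Rpl5 and, when ribosome assembly fails, the p53 regulator Mdm2. It had 11.58, 12.74 and 12.56 in sorted and 12.33, 12.65 and 12.74 in presort samples. Again sorted replicate 1 lay lowest, and the groups overlapped (-0.28 ± 0.29, SE; limma adjusted p = 0.554).

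Among the genes that rose, Rpl12, a protein at the base of the stalk, moved most. It had 10.51, 9.99 and 10.01 in sorted replicates 1, 2 and 3 and 8.77, 8.43 and 8.35 in the presort replicates. The groups were far apart, with a difference of 1.65 ± 0.18 (SE, 3.15-fold, limma adjusted p = 0.000273) and pool differences of 1.74, 1.56 and 1.66. A brighter pair of probe sets that lists Rpl12 with other symbols had 0.27, which did not pass, and 0.41, which did (limma). Rps25, a small subunit protein needed for internal initiation on some viral RNAs, had 11.53, 11.12 and 10.82 in sorted and 10.03, 9.82 and 9.94 in presort samples. It rose by 1.23 ± 0.18 (SE, 2.35-fold, limma adjusted p = 0.00124), and its groups did not overlap. A brighter probe set that lists Rps25 with other symbols had -0.15 and did not pass (limma). Rps27, a zinc-finger protein of the small subunit, had 7.30, 7.37 and 6.89 in sorted and 6.16, 6.05 and 6.28 in presort samples. It rose by 1.02 ± 0.15 (SE, 2.03-fold, limma adjusted p = 0.00125), with no overlap, and lies low on this scale. A probe set at 13.86 that lists Rps27 with another symbol had 0.63 and passed (limma). The calls of the single-symbol probe sets of Rpl12, Rps25 and Rps27 held under the 16 alternatives that did not concern the choice of probe set, with adjusted p up to 0.0225. The other 3 could not change the value of these genes, which have 1 probe set each.

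Rpl37a, a zinc-finger protein of the large subunit, rose less and less firmly. It had 13.31, 13.39 and 12.97 in sorted and 12.68, 12.84 and 12.80 in presort samples, which did not overlap. The difference was 0.45 ± 0.14 (SE, 1.37-fold, limma adjusted p = 0.0381). The call was lost in 13 of 19 alternatives. It did not pass when any array other than sorted replicate 3 or any whole pool was left out (limma adjusted p from 0.0532 to 0.180), and without _x_at and _s_at probe sets the difference was 0.17 (0.732). Its 2 other probe sets had 0.17 and 0.27.

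Rps27l and Rpl14 fell. Rps27l, a paralog of Rps27 and a target of p53, had 9.38, 10.45 and 9.88 in sorted replicates 1, 2 and 3 and 10.94, 11.60 and 11.54 in the presort replicates. Every sorted value was below every presort value, with a difference of -1.46 ± 0.29 (SE, limma adjusted p = 0.00522) and pool differences of -1.56, -1.16 and -1.67. Its 3 probe sets, which read the same gene and are not replicates, gave -1.46, -1.41 and -1.51. The call was lost without pool 3 (-1.36, adjusted p = 0.0746) and with the beta-actin covariate (-0.93 ± 0.29, SE; 0.0549). Rpl14, a large subunit protein, had 8.53, 8.20 and 8.09 in sorted and 8.85, 9.43 and 8.95 in presort samples, also without overlap. It fell by 0.80 ± 0.19 (SE, limma adjusted p = 0.0115). This call was lost without pool 2 (-0.59, adjusted p = 0.0851) and without pool 3 (-0.78, 0.0881).

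**Figure D2:**
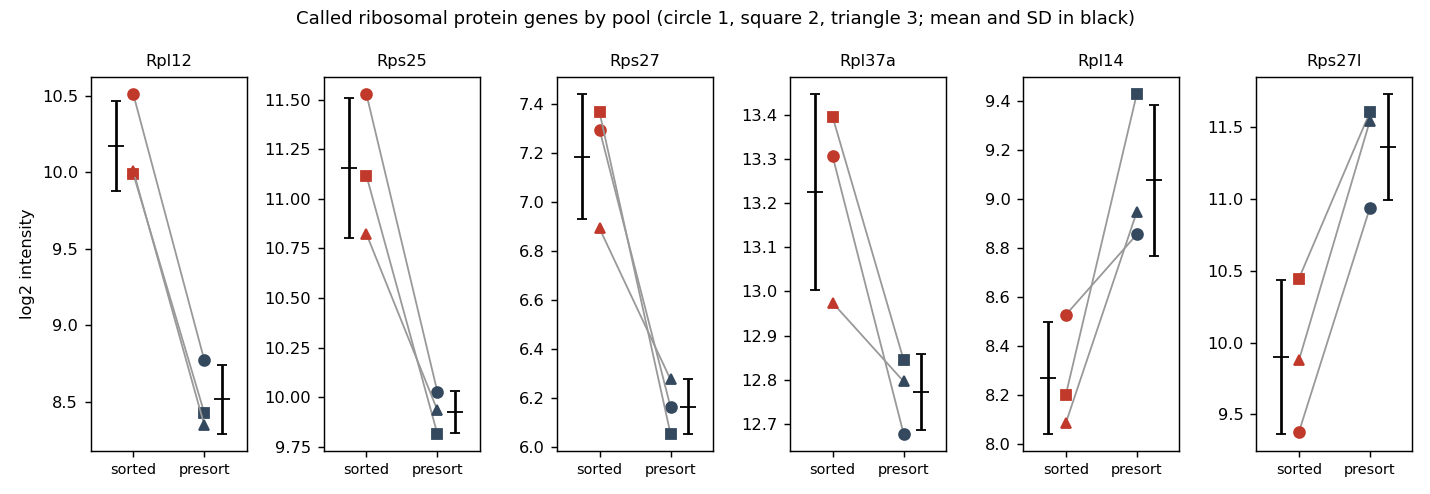
Log2 intensity of the 6 called genes in sorted (left, red) and presort (right, dark grey) samples, with lines joining the samples of a pool and black bars for mean and SD. Each vertical axis has its own range and does not start at 0; in every panel all 3 lines slope the same way, down to presort for the 4 genes that rose and up to presort for Rpl14 and Rps27l.

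Paralogs were compared where both had a probe set of their own. Rps27 and Rps27l moved in opposite directions, as given above. Rpl22, a large subunit protein required for lymphocyte development in mice, had 14.09, 13.97 and 14.12 in sorted and 14.08, 14.22 and 14.12 in presort samples. Rpl22l1, which can take its place in the ribosome, had 12.39, 12.42 and 12.36 in sorted and 12.17, 12.80 and 12.72 in presort samples. Both overlapped between the groups. Rpl7 stood at 13.78 ± 0.15 in sorted and 13.51 ± 0.08 in presort samples (SD, n = 3 each) without overlap, and did not pass (0.28 ± 0.12, SE; limma adjusted p = 0.124). Rpl7l1 overlapped at a mean of 10.41 in sorted and 10.38 in presort samples. Rps4l, the paralog of Rps4x, had 6.31, 7.07 and 6.49 in sorted and 6.11, 7.03 and 6.31 in presort samples, so it varied more between pools than between groups.

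The dimmest genes included paralogs made in other tissues. Rpl3l, the form of striated muscle, stood at 5.28 ± 0.05 in sorted and 5.19 ± 0.14 in presort samples (SD, n = 3 each). Rpl39l, the form of the testis, stood at 4.72 ± 0.17 in sorted and 4.83 ± 0.21 in presort samples. Both lay under 6.04, the median of all probe sets, and their groups overlapped. Rpl39 itself was at 7.73 ± 0.30 in sorted and 7.83 ± 0.17 in presort samples. Rps16 was lowest of all at 4.11 ± 0.16 in sorted and 4.27 ± 0.10 in presort samples. Rps16 is a core protein of the small subunit, and this value comes from 1 probe set, which also lay under 6.04. Probe sets that list several symbols are not part of it. Whether the value reflects the level of Rps16 mRNA was not tested.

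Position on the scale went with the kind of probe set. A plain _at probe set is designed to match 1 transcript, while _a_at matches several transcripts of a gene and _s_at or _x_at can match other genes. Of the 26 members at 13 or more, 2 were read by a plain _at probe set, against 4 of 11 members from 10 to 13 and 9 of 10 below 10. Of the 6 called genes, Rpl12, Rps25, Rps27 and Rpl14 were read by plain _at probe sets. Another 110 probe sets list a ribosomal symbol together with another symbol and name no single gene. They ranged from 3.87 to 14.96 with a median of 12.99. In a fit over all 45037 non-control probe sets, 16 of the 110 were higher and 2 lower, with a median difference of 0.07 (13% of all of these probe sets were higher and 12.9% lower). Of the 54 at 13 or more, 6 were higher and 1 lower, with differences from -0.38 to 0.63. Among all 110, 10 list the symbol of a called gene with another: 2 were higher and 1 lower, with differences from -0.67 to 0.63. The one listing Rps25 beside other symbols, at 13.10, had -0.15 ± 0.17 (SE), opposite in sign to the probe set of Rps25 alone. The pair listing Rpl12, at 12.92 and 13.12, had 0.27 ± 0.14 and 0.41 ± 0.10, against 1.65 for Rpl12 alone. The one listing Rps27, at 13.86, had 0.63 ± 0.13, and the 5 listing Rpl14, from 12.26 to 13.48, had -0.67 to -0.14. Which gene these probe sets read was not tested. RefSeq holds 82 protein-coding symbols that match the rule, of which 46 are members, and 28 ribosomal symbols stood only in probe sets of several symbols.

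The top of the scale bounds these values. Every array ran up to the same 15.23, as quantile normalization leaves it, and the members came within 0.65 of it. Members made up 12 of the 34 genes with a mean of 14 or more (35.3%) and 26 of the 201 genes at 13 or more (12.9%). Their median level was 13.28, against 7.05 for all genes. At 13 or more, none of the 26 members passed (limma adjusted p under 0.05; differences from -0.37 to 0.28), while 44.8% of all genes at that level did. Of the 175 other genes there, 46 were higher and 44 lower, with differences from -2.11 to 1.72. The median absolute difference was 0.14 for members and 0.43 for the other genes, and the median SE 0.11 and 0.12. At 14 or more it was 0.17 for the 12 members and 0.23 for the 22 others, of which 8 passed. Whether differences are compressed near the top was not tested. Scanner readings were not used here, so saturated spots could not be counted.

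**Figure D3:**
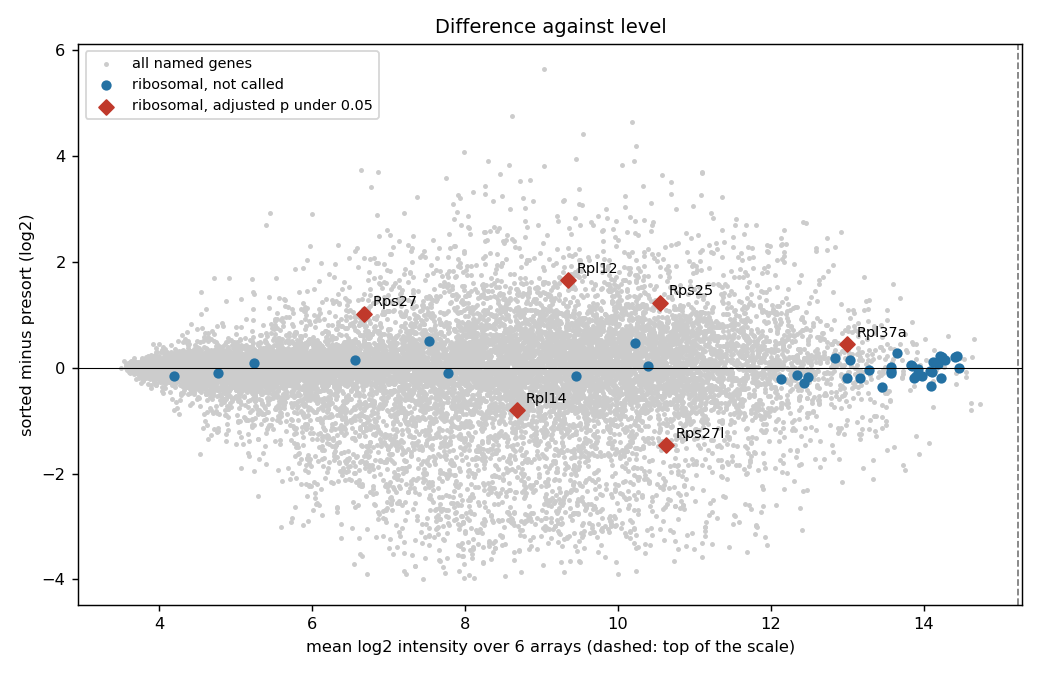
Sorted minus presort difference (log2, vertical axis) against mean log2 intensity over 6 arrays for all named genes (grey), ribosomal genes that did not pass (blue circles) and the 6 that did (red diamonds). The range of all genes narrows toward the top of the scale (dashed line, 15.23), where fewer genes lie (201 of 18193 at 13 or more). The median absolute difference of other genes was 0.10 below 6, 0.33 from 6 to 8 and 0.56 from 8 to 10. It was 0.52 from 10 to 11, 0.56 from 11 to 12 and 0.48 from 12 to 13. From 13 to 14 it was 0.45, and at 14 or more 0.23. The ribosomal genes at 13 or more lie between -0.37 and 0.28.

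The 11 members with a mean from 10 to 13 had 2 rises and 1 fall and a median absolute difference of 0.21; 55.7% of all genes at that level were called. The 10 members below 10 had 2 rises and 1 fall and a median absolute difference of 0.16; 27.5% of all genes there were called. The differences between levels were not tested. The SE was larger below 13, with medians of 0.20 and 0.16. Rps15, a small subunit protein, had the largest SE (0.50), with 11.01, 12.96 and 12.09 in sorted and 11.48, 12.59 and 12.62 in presort samples.

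The 23 members with several probe sets read the same gene at more than 1 place on the scale. There were 55 probe sets besides the brightest. Tested as features of their own among 34945 single-symbol probe sets, 6 ribosomal probe sets were higher and 4 lower (13.5% and 15.3% of all). None of the 40 single-symbol ribosomal probe sets at 13 or more passed by limma, while 7 of the 54 with several symbols at that level did, as given above. The 23 probe sets lying 2 or more below the brightest of their gene, some of them under the median of all probe sets, had a median absolute difference of 0.13. Of these, 2 were higher, and 16 had the sign of the brightest.

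Rps20, a small subunit protein, showed the widest gap between probe sets. Its probe sets at 14.24 and 13.75 had differences of 0.20 and 0.19, and those at 6.59 and 6.24 had 0.67 ± 0.22 and 0.97 ± 0.24 (SE). Only the dimmest passed (limma adjusted p = 0.0188). That call was lost without pool 1 (adjusted p = 0.0598), pool 3 (0.169), presort replicate 3 (0.0755) or sorted replicate 3 (0.0553), and with the beta-actin covariate (0.173). Rps3, which also has a role in DNA repair, had 0.06 at 14.18 and 0.73 ± 0.28 (SE) at 9.18, where it did not pass (limma adjusted p = 0.0926). Its dimmest probe set, at 5.24, had 0.01 ± 0.20 (SE), so the difference was not larger at every dimmer probe set. Rpl22 had -0.08 at 14.10, -0.15 at 11.44 and 0.51 ± 0.13 (SE) at 9.77. The last passed (limma adjusted p = 0.0231), but not without pool 1 (0.103), pool 3 (0.208), presort replicate 1 (0.0774), presort replicate 3 (0.0893) or sorted replicate 3 (0.0700), nor with the beta-actin covariate (0.0958).

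Other genes with wide gaps had no probe set that passed. Rps24, a small subunit protein mutated in some patients with Diamond-Blackfan anaemia, had 0.05 to 0.15 in 5 probe sets at 6.57 to 13.03 and -0.45 ± 0.43 (SE) in 1 at 6.42. Rpl35, a protein at the exit of the nascent chain, had -0.17 to 0.11 in 5 probe sets from 12.27 to 13.83 and 0.38 ± 0.31 at 5.43. Rpl27a had 0.46 at 10.23 and 0.03 at 4.31. Rps9 had -0.20 at 12.99, 0.20 at 12.77 and 0.13 at 8.23. Rpl13a, which also silences inflammatory mRNAs in human monocytes, had 0.23 at 14.20 and -0.17 at 11.81. Rps29 and Rps28, with 3 probe sets each at 13.99 or above, gave ranges of -0.02 to 0.01 and 0.11 to 0.15.

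**Figure D4:**
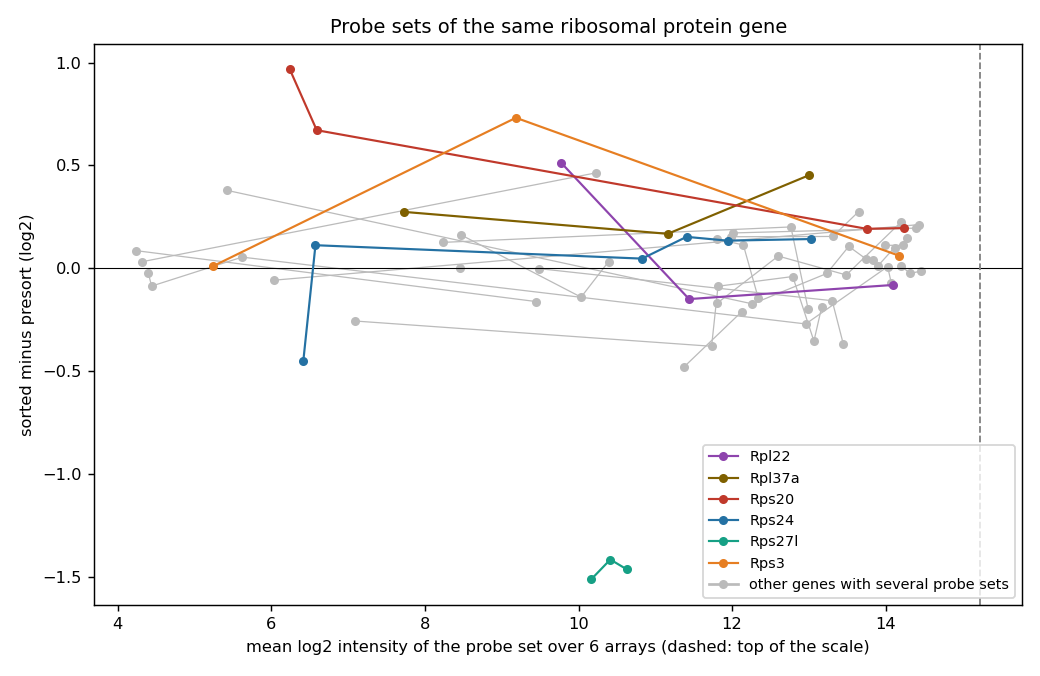
Sorted minus presort difference (log2, vertical axis) against the mean log2 intensity of each probe set, with lines joining probe sets of 1 gene, for the 23 genes with several. Rps20 (6.59 and 6.24), Rps3 (9.18) and Rpl22 (9.77) have dimmer probe sets above the brightest of the gene, Rps3 (5.24) and Rpl22 (11.44) also have one below it, the 3 of Rps27l lie together near -1.5, and most grey lines stay near 0.

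The median level of the members was 13.25, 13.37 and 13.20 in sorted replicates 1, 2 and 3 and 13.27, 13.31 and 13.33 in the presort replicates. Presort replicate 1 was the lowest presort array for 31 members (66.0%), against 44.7% of all genes. Sorted replicate 1 was the lowest sorted array for 21 members (44.7%), against 42.0% of all genes. Both are the arrays of their group with the highest beta-actin 3' minus 5' difference. The genes outside the family whose pattern over the 6 arrays was most like that of the median member were Myo7b, Krt77, Grin2d and Krt81 (Pearson r of 0.988 to 0.991 over 6 arrays, a description). All 4 had means of 5.16 to 7.03, far below most members, and none differed between the groups by more than 0.03.

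Genes that build, use and control ribosomes were measured on the same arrays. Of 76 measured ribosome biogenesis factors, 16 were higher and 7 lower (30.3%, against 32.6% of all genes), with a median difference of 0.09. Taf1c, a subunit of the factor that starts RNA polymerase I transcription, rose by 1.09, Taf1a, another subunit, by 1.32 and the helicase gene Ddx10 by 0.87. Rrp12, a factor of pre-ribosome maturation and export, fell by 0.91, a call lost in 6 of 19 alternatives (without pool 1, pool 2, presort replicate 2 or presort replicate 3, with repeated quantile normalization and with the beta-actin covariate). Of 32 initiation factors 4 were higher and 5 lower (28.1% called, median -0.05). Eif4a2, a paralog of the initiation helicase, had 12.54 ± 0.28 in sorted and 11.48 ± 0.04 in presort samples (SD, n = 3 each), a rise of 1.06 ± 0.15 (SE, limma adjusted p = 0.00105). The guanine exchange factor subunit Eif2b3 fell by 0.83. Eif1ax, an initiation factor that helps scanning, also fell by 0.83, but its sign turned with the mean or the dimmest probe set. Eif4a1, the initiation helicase itself, fell by 0.52, a call lost without pool 2, without pool 3, with the arrays' medians set equal and with the beta-actin covariate. Of 10 elongation and termination factors, Eef1d was lower and none was higher (limma), with a median difference of -0.34 that became -0.01 with the beta-actin covariate. With the pools as a block 3 were lower, and 1 was higher with the arrays' medians set equal or with repeated quantile normalization. Eef1d had 11.65 ± 0.31 in sorted and 12.44 ± 0.14 in presort samples (SD, n = 3 each), and the Eef1d call was lost without pool 3, with the beta-actin covariate and with the mean or dimmest probe set. Taf1a, Taf1c, Ddx10, Eif4a2 and Eif2b3 kept their calls and signs under the alternatives tried. The counts of these lists moved: with an array or pool left out, 9 to 19 biogenesis factors were higher (9 without pool 3, 10 without presort replicate 3 or sorted replicate 3) and 2 to 12 lower (2 without pool 2, 3 without pool 3, 4 without presort replicate 2 or 3, 12 without sorted replicate 3). Of the initiation factors 2 to 4 were higher and 2 to 5 lower, with 2 and 2 without pool 2 or pool 3, 2 and 3 without presort replicate 3, 2 and 4 without pool 1, and 3 and 3 without presort replicate 2 or sorted replicate 1. With the pools as a block 16 biogenesis factors were higher and 13 lower. With the arrays' medians set equal, 35 biogenesis factors were higher and 5 lower, and 11 initiation factors were higher and 2 lower. Of all 18193 genes, 5162 were then higher and 2576 lower.

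Of 18 other genes whose mRNAs carry the pyrimidine tract, 1 was higher (Eif3f, 0.45 ± 0.10, SE) and 1 lower (Eef1d, -0.79 ± 0.17), with a median of 0.12. This is 11.1% called, against 32.6% of all genes. Eef1a1, the elongation factor that delivers tRNA, was among the brightest genes and did not pass at 0.19 ± 0.10. The Eif3f call was lost without pool 2, without pool 3 and with the beta-actin covariate. With the arrays' medians set equal, 8 of these genes were higher and 1 lower, against 5162 higher and 2576 lower of all 18193 genes. Of 21 regulators of ribosomal protein synthesis 6 were higher and 3 lower (42.9% called, against 32.6% of all genes). Myc, which drives ribosomal protein transcription, stood at 8.52 ± 0.20 in sorted and 9.58 ± 0.06 in presort samples (SD, n = 3 each), and fell by 1.06 ± 0.13 (SE, limma adjusted p = 0.000465). Mlst8, a subunit of the mTOR complexes, fell by 1.13 ± 0.17, and both calls held under the alternatives. Rictor, a subunit of the second mTOR complex, had the widest difference of the list at 1.52 ± 0.42 (SE). Its call was lost in 6 of 19 alternatives (without pool 2, presort replicate 2, presort replicate 3 or sorted replicate 2, with the beta-actin covariate and with the dimmest probe set). Tsc1, an inhibitor of mTOR signalling, rose by 0.88 ± 0.11, and its sign turned with the dimmest probe set. Over the alternatives 0 to 12 regulators were higher and 2 to 4 lower, with 2 and 2 without pool 3 or presort replicate 3 and 3 and 2 without pool 2 or presort replicate 2, and 12 and 2 with the arrays' medians set equal.

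Mitochondrial ribosomal proteins, which form a separate ribosome, lay lower on the scale (median 9.43, none at 13 or more). Of 76 measured, 3 were higher and 18 lower (limma; 27.6% called, against 32.6% of all genes), with a median difference of -0.25. With the pools as a block 4 were higher and 23 lower. Mrpl33 fell by 1.40 and Mrpl27 by 1.11, while Mrps6 rose by 0.98, and these 3 held under the alternatives. Mrpl48 fell by 1.01, a call lost with the beta-actin covariate and with the dimmest probe set. The number lower was 4 without pool 3, 10 without pool 2, 9 without presort replicate 2, 10 without presort replicate 3 and 7 with the beta-actin covariate. Setting every array's median over the named genes to the same value gave 12 higher and 13 lower, with a median of -0.03. Of all 18193 genes, 5162 were then higher and 2576 lower. Whether the 2 families differ was not tested.

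Small differences depend on the centre chosen for the arrays. Setting every array's median over the named genes to the same value added 0.23 to each difference. The median of all genes became 0.23 and that of the members 0.21. Then 13 members were higher and 2 lower, and of all 18193 genes 5162 were higher and 2576 lower. Before this step, intensities of equal rank over all probe sets deviated from their mean by at most 0.15% between arrays. Of the 26 members at 13 or more, 14 had a difference below 0, and in 12 of these the sign turned with this centre.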

How the data were processed

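The authors deposited linear intensity values; the submitters' processing notes name RMA as the tool, and its version is not given in the sources used here. They run from 9.71 to 38492.08 on each array. The log2 of the deposited values was taken with no pseudocount. Of 45101 probe sets, 34945 list 1 gene symbol in the platform's annotation, 932 several, 9160 none here, and 64 are controls. The comparison used limma 3.58.1 (R 4.3.3; lmFit, then eBayes, without a block, two-sided, 4 residual degrees of freedom before moderation), with Benjamini-Hochberg adjustment over 18193 genes at 0.05. Sorted and presort samples of a number share a pool, so the numbers pair the samples; their deviations correlated across genes at 0.39, 0.20 and -0.03. On simulated data for this comparison (18193 genes, 200 changed), 70.8% of changes of 1 and 90.4% of changes of 2 (log2) were recovered, with 6 false calls. The simulation drew values independently, without an effect shared by a pool. It changed far fewer genes than the 5925 called in the data, so these rates need not hold for the data. Figures used matplotlib 3.10.9.

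Members and lists were chosen with earlier results of these data known. Named are called members with 1 sign in 3 pools, the 4 brightest and 4 dimmest, paralog pairs, stalk and 5S genes, the 8 with the widest gap between probe sets, the 4 genes most alike, up to 4 called genes of each other list with the largest differences and, of the cell type lists, the B lineage pair highest on the scale. Rpl37, Rps6, Rps15, Rps18, Rps19 and Eef1a1 were named outside this rule after their values were seen.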

Additional observations from a re-analysis of the deposited data

How the results depend on the processing

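Alternatives left out arrays or pools, added the replicate block, changed the centring, normalization, filter, prior, weights or probe set, or added the beta-actin covariate. With the replicate block, which follows the shared pools, 5 members were higher and 2 lower, and over all genes 2860 were higher and 3548 lower. The block added Rpl37 (0.51 ± 0.15, SE; limma adjusted p = 0.0407, against 0.143 without it) and changed no other member's call. Leaving out an array or a pool gave 3 to 4 members higher and 0 to 2 lower, with median differences from -0.05 to 0.04. It gave 1544 to 2608 genes higher and 2362 to 3256 lower, the fewest without pool 3. Among ribosomal probe sets it gave 3 to 7 higher and 0 to 5 lower. Centring gave 13 members and 5162 genes higher and a member median of 0.21. The beta-actin covariate left 3 members higher and 1 lower, with a member median of 0.11. Over all genes 2096 were then higher and 2732 lower. Taking the dimmest probe set of each gene gave 1639 genes higher and turned Rpl22 to 0.51. Adding the 110 probe sets of several symbols to the 102 was an alternative chosen after seeing the data. It gave 21 ribosomal probe sets higher and 6 lower. Of all 45037 non-control probe sets, 13% were higher and 12.9% lower. Of 885 single-member values under alternatives, 33 changed call, and in 1 of these the sign turned too. Turns of sign in members that passed neither way were not counted. Of the 41 members that did not pass, 31 passed under no alternative. For the 24 members with 1 probe set, the alternatives on the choice of probe set could not change the value. Depth in reads does not apply, and signal over background was not analysed here.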
